A study of Mus musculus with 9 samples.

Results

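Genomic imprinting silences a gene on the chromosome inherited from 1 parent, and 10 imprinted genes other than Igf2 were followed here in skin keratinocytes over the first weeks after birth. The members were taken by gene symbol from a table of 24532 genes. By background knowledge 6 of them are expressed mainly from the paternal chromosome (Peg3, Plagl1, Peg10, Ndn, Mest and Dlk1) and 4 mainly from the maternal one (Grb10, Cdkn1c, Meg3 and Zim1). All 10 passed the filter on low counts. Zim1 and Dlk1 passed it only with day 1 included, and did not in a model of days 7 and 14 alone. The counts do not separate the alleles, so the parental origin of a transcript was not measured. The class of every further imprinted gene named below is likewise background knowledge and may not hold in skin.

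The cells came from the skin of C57BL/6 mice at postnatal day 1, day 7 or day 14, with 3 libraries per day and no treatment or genetic change. Live cells negative for the leukocyte marker CD45.2 were sorted. No keratinocyte marker was selected, so other skin cells can be present. Neither pooling of animals nor their sex is given, so the p-values cover only the variation among these libraries, part or all of which could be technical. Libraries are named by the day and by the number in the column header. In bulk RNA, fewer cells of a type and less RNA per cell cannot be told apart.

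Imprinted genes cluster in domains, in which a differentially methylated control region sets which parental copy of each gene is active. Many paternally expressed genes promote growth before birth and many maternally expressed ones restrain it. A set of them, often called the imprinted gene network, is known to be highly expressed in fetal tissues and to decline in several organs as postnatal growth slows. Plagl1, a zinc finger transcription factor, is known to regulate other genes of this network.

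Of the 10 genes, 8 fell from day 1 to day 7 and 1 rose, where 24.0% of all 14507 genes tested fell and 25.5% rose. By day 14, 7 were below their day 1 level and 0 above it, against 38.4% and 35.5% of all genes. Both counts of falls include Zim1 and Dlk1, for which the filter left a rise from day 1 hardly possible to call. The falls spanned zinc finger genes (Peg3, Zim1), a noncoding RNA (Meg3) and growth regulators of either parental class (Dlk1, Grb10, Ndn). Plagl1 and Cdkn1c followed other courses, with a peak and a dip at day 7 respectively, and Peg10 did not pass the test in any pair of days. A change was called at an adjusted p under 0.05 in edgeR's quasi-likelihood test over all genes. Levels are in CPM, counts scaled to the size of each library with TMM factors. Some difference among the 3 days was called for 82.1% of all genes.

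Promoter windows of 2 reciprocally imprinted pairs are shown first, because in each pair a paternally and a maternally expressed gene lie near each other and both had lower values at day 7 than at day 1. Peg3 and Zim1 are neighbours 7.4 kb apart on chromosome 7, and Dlk1 and Meg3 are 77.7 kb apart on chromosome 12. Each window runs 5′ to 3′ on the gene's strand from 250 bases before to 50 bases after a RefSeq transcript start (GRCm38.p6). The windows are chr7:6730370-6730669 on the minus strand for Peg3, chr7:6696383-6696682 on the minus strand for Zim1, chr12:109452573-109452872 on the plus strand for Dlk1, and chr12:109540746-109541045 on the plus strand for Meg3, the first of 2 windows in the table. Capitals mark GGGGCCCC, a palindrome bound by Plagl1, and TGCCGC, the hexamer of the imprint-protecting factor Zfp57, which reads GCGGCA on the opposite strand.
Peg3: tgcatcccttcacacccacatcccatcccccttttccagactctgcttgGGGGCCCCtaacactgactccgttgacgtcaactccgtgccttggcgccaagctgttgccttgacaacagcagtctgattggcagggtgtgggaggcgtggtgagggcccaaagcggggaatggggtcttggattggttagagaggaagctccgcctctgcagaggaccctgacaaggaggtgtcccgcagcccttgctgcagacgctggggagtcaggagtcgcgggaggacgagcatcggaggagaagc
Zim1: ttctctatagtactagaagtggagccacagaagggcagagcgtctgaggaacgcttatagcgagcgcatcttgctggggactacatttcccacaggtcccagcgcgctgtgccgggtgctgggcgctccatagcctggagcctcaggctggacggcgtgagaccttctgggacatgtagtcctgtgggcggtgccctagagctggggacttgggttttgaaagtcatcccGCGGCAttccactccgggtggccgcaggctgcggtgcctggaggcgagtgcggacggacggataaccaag
Dlk1: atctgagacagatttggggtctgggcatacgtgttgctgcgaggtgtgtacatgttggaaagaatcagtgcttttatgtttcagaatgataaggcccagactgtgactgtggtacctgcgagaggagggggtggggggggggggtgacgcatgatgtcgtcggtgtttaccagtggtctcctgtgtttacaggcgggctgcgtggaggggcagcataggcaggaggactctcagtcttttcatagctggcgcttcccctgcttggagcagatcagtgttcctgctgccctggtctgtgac
Meg3: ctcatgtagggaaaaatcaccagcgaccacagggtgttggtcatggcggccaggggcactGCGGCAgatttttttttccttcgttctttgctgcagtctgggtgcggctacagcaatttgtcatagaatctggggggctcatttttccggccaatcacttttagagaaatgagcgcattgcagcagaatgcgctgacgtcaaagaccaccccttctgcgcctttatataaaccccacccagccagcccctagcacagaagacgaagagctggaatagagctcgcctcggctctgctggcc

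Among the 8 members with a window, GGGGCCCC stood only in that of Peg3, where it starts at base 50. It was found in 1.08% of 32851 promoter windows of the same length. TGCCGC on either strand stood in windows of 5 members (Grb10, Meg3, Mest, Plagl1 and Zim1), against 11.6% of all windows. GCCATNTT, a motif of Yy1, stood in 0 of the 8 members' windows and in 6.05% of all. The motifs do not overlap each other in the sequences shown. The window with the most CpG sites was the first of Grb10, with 45 CpGs, where the median over all windows was 7. Peg3 and Meg3 had 13 CpGs each, Zim1 20 and Dlk1 9. These matches describe letters and not binding.

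Peg3 encodes a large zinc finger protein of the paternal chromosome (gene 18616; mm10, chromosome 7, 6703892 to 6730462) and was the most abundant member at day 1. Its level was 356.7, 302 and 318.9 CPM in the day 1 libraries, 119.6, 121.8 and 113.5 CPM at day 7 and 45.99, 49.61 and 57.68 CPM at day 14. The 3 days did not overlap, and each later day lay below the one before. The fall came to 1.46 ± 0.08 (SE) on the log2 scale in the first week (adjusted p = 1.09e-07) and to 1.21 ± 0.08 in the second (adjusted p = 2.23e-07). Day 14 was 6.38-fold below day 1. Only 5.35% of all genes had a larger called fall between those days.

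Zim1, a maternally expressed zinc finger gene beside Peg3 (gene 22776; chromosome 7, 6674444 to 6696540), was far scarcer. It had 2.01, 1.53 and 2.18 CPM at day 1 and 0.363, 0.13 and 0.155 CPM at day 7. Day 14 had 0 counts throughout. The days did not overlap, and day 7 was below day 1 by 3.11 ± 0.44 on the log2 scale (adjusted p = 0.000204). Against the limit that 3 counts per library allow (0.0587 CPM at day 14, covering counting error only), day 14 was at least 32.5-fold lower than day 1 and at least 3.68-fold lower than day 7. Usp29, a paternally expressed gene whose body ends 0.1 kb from that of Peg3, fell in both weeks as well, from 0.828 ± 0.129 CPM at day 1 to 0.256 ± 0.082 at day 7 and 0.0251 ± 0.0435 at day 14 (SD, n = 3; adjusted p = 0.0234 and 0.00438). The 3 tested genes of this domain, from both parental classes, thus fell in each of the 2 weeks. Zim1 passed the low-count filter only through day 1, however, and Usp29 was also scarce after day 1. Only the fall of Peg3 rests on counts far above the filter.

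**Figure D1:**
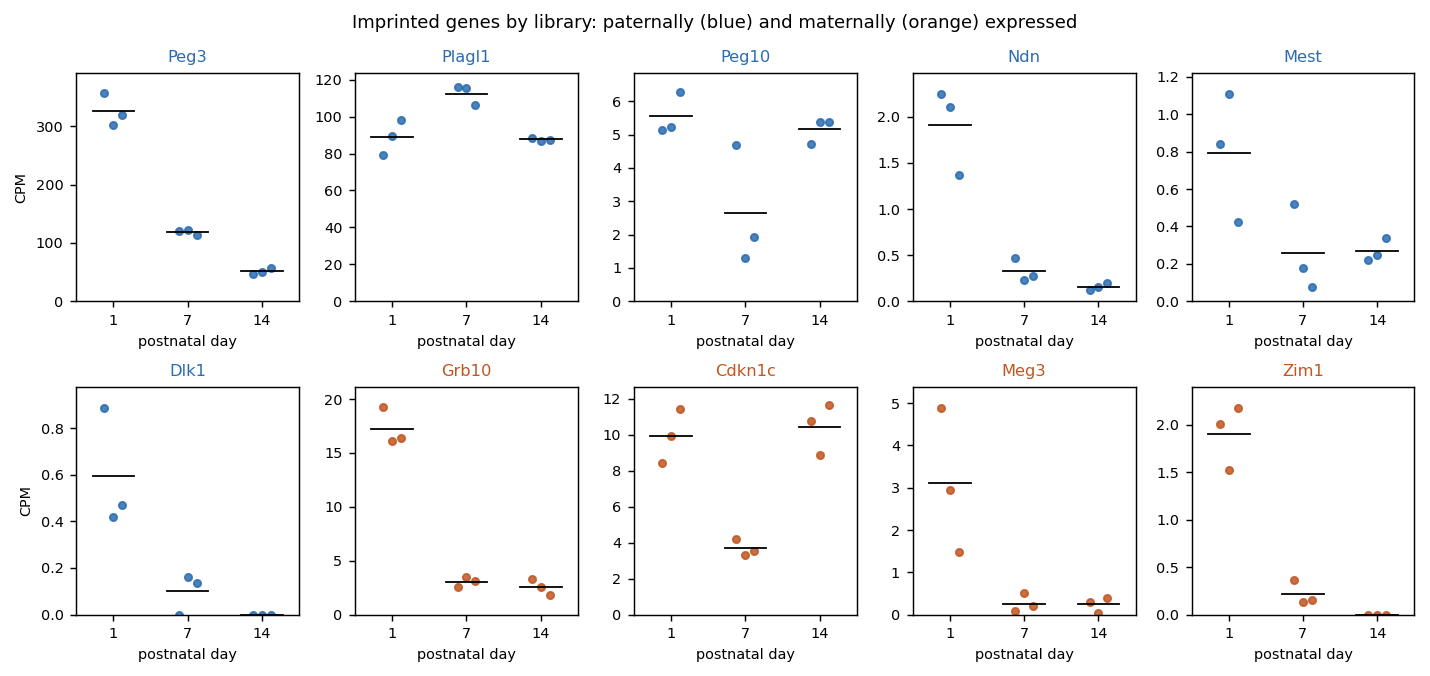
CPM of the 10 imprinted genes (vertical axes, linear, starting at 0) in each library by postnatal day (horizontal axes), with paternally expressed genes in blue, maternally expressed genes in orange, points for libraries and bars for the mean of 3. Peg3, Ndn, Grb10 and Zim1 are lower in every day 7 library than in every day 1 library, while Plagl1 is highest and Cdkn1c lowest at day 7.

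Plagl1 (gene 22634; chromosome 10, 13090832 to 13131694) rose and then returned. It was at 79.37, 89.62 and 98.18 CPM in the day 1 libraries, 115.8, 115.3 and 106.4 CPM at day 7 and 88.62, 86.97 and 87.39 CPM at day 14. Day 7 stood above the other days without overlap, whereas days 1 and 14 overlapped. The rise was 0.34 ± 0.07 on the log2 scale (adjusted p = 0.00115) and the later fall 0.36 ± 0.07 (adjusted p = 0.000421), so neither reached 1.5-fold. A turn of this kind, higher and then lower with each step called, was found in 7.24% of all genes. Between days 1 and 14 the difference did not pass the test (-0.02 ± 0.07, adjusted p = 0.77). With library totals alone as scaling it did, at -0.29 (adjusted p = 0.000866). That scaling moves the median gene from -0.05 to -0.32 in this pair of days. At day 7 Plagl1 was the member of highest level per kilobase of exon, at 20.9 CPM per kb against 13.6 for Peg3, and the 2 genes did not overlap on any day.

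Hymai, an RNA whose gene body overlaps Plagl1, was not in the lists. It did not follow the course of Plagl1, with 0.948 ± 0.102, 1.1 ± 0.345 and 2.08 ± 0.646 CPM at days 1, 7 and 14 and a rise only in the second week (log2 fold change 0.91, adjusted p = 0.017). The libraries were made with a stranded kit, but the strand setting of the counting is not given in the sources used here. Reads of overlapping genes may therefore have been counted for either gene.

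Grb10 encodes an adaptor protein that restrains signalling from the insulin receptor (gene 14783; chromosome 11, 11930499 to 12037428). In the day 1 libraries it was at 19.28, 16.15 and 16.34 CPM, against 2.51, 3.51 and 3.11 CPM at day 7 and 3.32, 2.58 and 1.81 CPM at day 14. Day 1 lay apart from both later days, which overlapped each other. The first-week fall was 2.5 ± 0.19 on the log2 scale (adjusted p = 1.13e-06), a 5.67-fold difference of means. From day 7 to day 14 the change of -0.24 ± 0.20 did not pass the test (adjusted p = 0.3), although it did without day 14 library 4 (-0.47, adjusted p = 0.0449, against up to 1 over the alternatives). Cobl, a gene 199.2 kb from Grb10 that encodes an actin nucleator, went the other way, from 15.1 ± 0.993 to 41.7 ± 3.9 and 123 ± 4.21 CPM (adjusted p = 1.45e-08 and 2.49e-09).

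Cdkn1c encodes the cyclin-dependent kinase inhibitor p57 (gene 12577; chromosome 7, 143458339 to 143461059). It was at 8.44, 9.96 and 11.4 CPM in the day 1 libraries, 4.18, 3.33 and 3.54 CPM at day 7 and 10.8, 8.88 and 11.7 CPM at day 14. Every day 7 library was below every library of the other days, and days 1 and 14 overlapped. The fall of 1.43 ± 0.14 (adjusted p = 5.74e-06) and the later rise of 1.5 ± 0.14 (adjusted p = 1.89e-06) on the log2 scale were nearly equal in size. Such a turn, lower and then higher, was found in 6.23% of all genes. Days 1 and 14 did not differ beyond their spread (0.07 ± 0.14, adjusted p = 0.662). All 18 alternatives run kept both steps of Cdkn1c past the threshold in these directions.

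Other Cdk inhibitor genes took another course. Of 5 tested, 4 rose and 0 fell from day 1 to day 7, and again 4 rose and 0 fell in the second week. Over all genes 25.5% rose and 24.0% fell in the first week, and 32.5% and 35.1% in the second. Cdkn1b, which encodes p27, went from 60.1 ± 3.56 to 82.3 ± 3.04 and 222 ± 12.4 CPM (adjusted p = 3.72e-05 and 1.24e-09). Cdkn1a, which encodes p21, was at 234 ± 22.7, 297 ± 50.9 and 764 ± 89.7 CPM, of which only the second step passed (adjusted p = 0.0749 and 5.99e-05). The cycling marker Mki67 was at 437 ± 21, 449 ± 13.9 and 243 ± 8.05 CPM.

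In the domain of Cdkn1c, 2 further imprinted genes dipped at day 7. Kcnq1ot1, the paternally expressed RNA that silences this domain on its own chromosome, went from 15.7 ± 0.249 to 11.2 ± 1.35 and 14.8 ± 2.77 CPM (log2 fold changes -0.49 and 0.39, adjusted p = 0.00763 and 0.0166). Phlda2, a maternally expressed growth-restraining gene, went from 4 ± 0.988 to 2.53 ± 0.875 and 5.62 ± 0.795 CPM (-0.66 and 1.15, adjusted p = 0.0482 and 0.00176). Libraries of days 1 and 7 overlapped for Phlda2, and those of days 7 and 14 for Kcnq1ot1, unlike for Cdkn1c. The remaining tested genes of the domain did not dip. Slc22a18 fell in both steps, from 9.66 to 7.01 and 4.71 CPM, and Ascl2, a transcription factor gene, rose in both, from 4.63 to 6.89 and 21.4 CPM. Cd81 and Tssc4 rose only in the second week.

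The day 7 libraries differ from the others in more than age. Their column headers read KLRNA where those of days 1 and 14 read KL, and the meaning of this is not given. Xist, the RNA of the inactive X chromosome of females, was between 860.8 and 1642 CPM at day 1 and between 2328 and 2682 CPM at day 14, while each day 7 library had 0 counts of it. Ddx3y, a gene of the Y chromosome, was at 102.6, 111.9 and 101 CPM at day 7, between 28.98 and 55.59 at day 1 and had 0 counts at day 14. Among 10146 genes with a mean of at least 5 CPM, those with a course most like Cdkn1c over the 9 libraries were Mid1 (Pearson's r = 0.995 on log2 CPM) and Kdm5c (0.988), which lie on chromosome X, followed by Rara (0.983), Pcbp4 (0.983) and Dmpk (0.978), which lie on chromosomes 11, 9 and 7. Mid1 was at 66.3 ± 11.6, 24.7 ± 4.16 and 75.7 ± 8.53 CPM, and Kdm5c, known to escape X inactivation, at 220 ± 5.29, 171 ± 1.28 and 220 ± 6.43 CPM. The points share libraries and depth, so these correlations are a description. The days thus differ in sex-linked transcripts as well as in age, and day 7 also in the form of its headers. These cannot be told apart in any comparison here, the day 7 values of Cdkn1c, Plagl1 and Peg10 included.

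**Figure D2:**
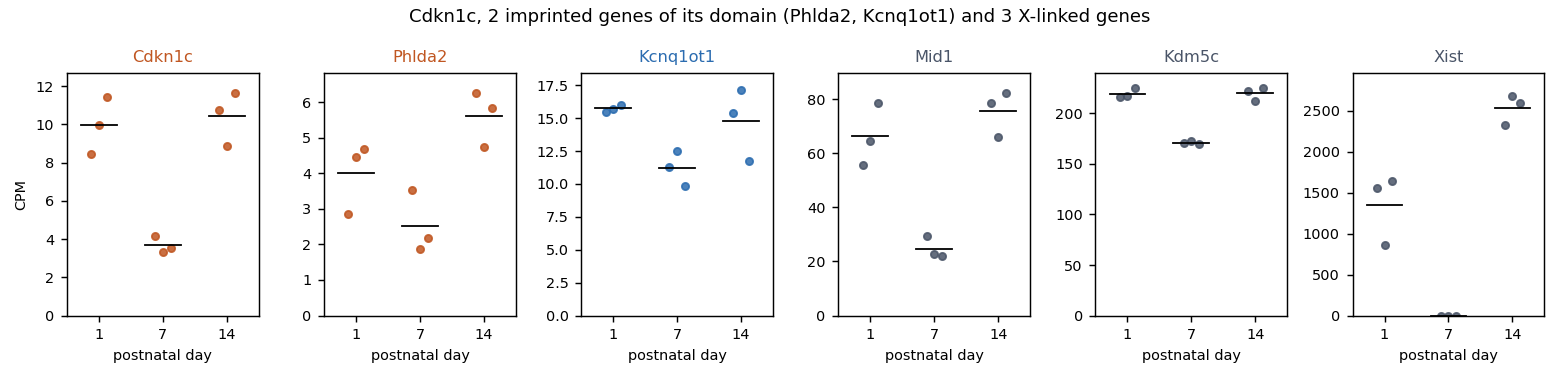
CPM of Cdkn1c, of Phlda2 and Kcnq1ot1 from the same domain, and of the X-linked genes Mid1, Kdm5c and Xist (vertical axes, linear, starting at 0) in each library by postnatal day, with bars for the mean of 3. All 6 genes have their lowest mean at day 7, where Xist is at 0 counts in every library.

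Dlk1 and Meg3 mark the imprinted domain of chromosome 12. Dlk1 encodes a membrane ligand of the Notch family that is known from preadipocytes and fetal mesenchyme (gene 13386; 109452485 to 109463336). It had 60, 26 and 29 counts in the day 1 libraries (0.887, 0.418 and 0.472 CPM), 0, 10 and 7 counts at day 7 and none in any day 14 library. Days 1 and 7 did not overlap, with a difference of -2.58 ± 0.80 (adjusted p = 0.0213). Leaving out day 1 library 4 (0.0958) or library 3 of day 7 (0.0512) ended that call, with a range from 0.00677 to 0.0958 over the alternatives. Day 14 was at least 10.1-fold below day 1, a difference called under every one of 18 alternatives, and at least 1.69-fold below day 7. The second-week call (adjusted p = 0.0265, from 0.00293 to 0.114 over the alternatives) ended when library 2 (0.0742) or 3 (0.0571) of day 7, or library 4 (0.0512), 5 (0.0533) or 6 (0.0519) of day 14, was left out.

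Meg3 is the maternally expressed long noncoding RNA of the domain (gene 17263; 109540996 to 109571729). It was at 4.9, 2.94 and 1.48 CPM at day 1, 0.0789, 0.505 and 0.193 CPM at day 7 and 0.299, 0.0377 and 0.398 CPM at day 14. Every day 1 library was above every later one, and days 7 and 14 overlapped. The log2 fold change was -3.57 ± 0.77 in the first week (adjusted p = 0.00473) and -0.10 ± 0.88 in the second (adjusted p = 0.929). Rian, another maternally expressed noncoding RNA 32.2 kb from Meg3, was also highest at day 1, at 1.73 ± 0.939, 0.186 ± 0.185 and 0.22 ± 0.0926 CPM (adjusted p = 0.00217 and 0.79). Rtl1, a paternally expressed gene of the domain, had 0 counts throughout, and Dio3 and Mirg were too low to be tested. Begain, 384.2 kb from Dlk1 and in none of the lists, fell from 9.1 ± 1.3 to 2.69 ± 0.554 and 1.94 ± 0.346 CPM (adjusted p = 7.29e-06 and 0.0412).

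Fibroblast markers and this domain were highest in the same library at day 1 and at day 7, but not at day 14. The summed level of 6 markers (Col1a1, Col1a2, Col3a1, Lum, Pdgfra and Dpt) was 92.3, 42.4 and 30.95 CPM in day 1 libraries 4, 5 and 6, 8.62, 47.1 and 7.83 CPM in day 7 libraries 1, 2 and 3, and 29.15, 17.5 and 10.55 CPM in day 14 libraries 4, 5 and 6. Postn, the seventh marker of the list, was left out of this sum after its values were seen, at 1381 to 1497 CPM at day 1. Day 1 library 4 had the highest level of Meg3, Rian, Dlk1 and the fibroblast sum among all libraries, and day 7 library 2 had the highest of each among the day 7 libraries. At day 14 the order differed, since Meg3 was highest in library 6 and the fibroblast sum in library 4. Day 7 library 2 was above day 1 libraries 5 and 6 in the fibroblast sum but below both in Meg3, Rian and Dlk1. Within the sum, Col1a2 was below both too, at 14.79 CPM against 24.72 and 21.84, while the other markers were above both. Dcn, a matrix gene outside the marker list, was also below both, at 14.98 CPM against 79.59 and 107.7. Of the 7 fibroblast markers 2 fell and 0 rose from day 1 to day 7, against 24.0% and 25.5% of all genes. These were Col1a2 and Postn, with log2 fold changes of -1.66 and -0.12. An alternative without day 1 library 4 and day 7 library 2 was chosen after the data were seen. In it Dlk1 had a first-week log2 fold change of -2.77 and did not pass (adjusted p = 0.0828), while Meg3 passed. The libraries left still differed in the fibroblast sum, at 42.4 and 30.95 CPM at day 1 against 8.62 and 7.83 CPM at day 7. The part of fibroblasts in these falls was not tested.

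**Figure D3:**
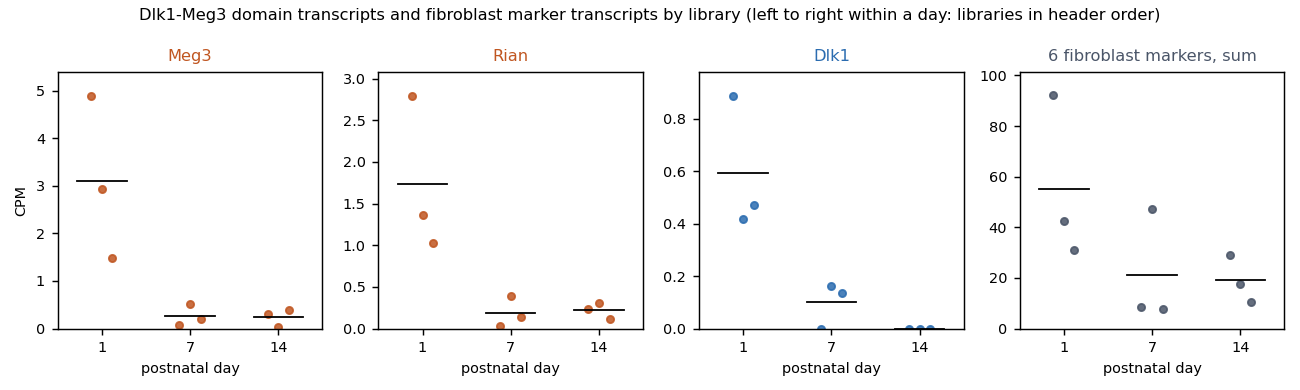
CPM of Meg3, Rian and Dlk1 and the summed CPM of 6 fibroblast markers (vertical axes, linear, starting at 0) by postnatal day, with points for libraries in header order and bars for the mean of 3. The first day 1 library is the highest in all 4 panels, and all day 14 libraries of Dlk1 are at 0 counts.

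Ndn encodes necdin, a growth-suppressing protein of the Prader-Willi domain (gene 17984; chromosome 7, 62348277 to 62349928). It was at 2.25, 2.11 and 1.37 CPM at day 1, 0.474, 0.228 and 0.271 CPM at day 7 and 0.12, 0.151 and 0.199 CPM at day 14. No days overlapped. The first-week fall of 2.54 ± 0.37 on the log2 scale (adjusted p = 0.000113) was called under all 18 alternatives run. The second step, -1.05 ± 0.43, was near the threshold (adjusted p = 0.0476, from 0.023 to 0.241 over the alternatives). Among single libraries left out, day 1 library 4 (0.0601) and 5 (0.063), library 1 of day 7 (0.213) and library 4 (0.122) or 5 (0.0956) of day 14 each ended the call. DESeq2 with all libraries did not make it (0.0579).

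Other genes of the Prader-Willi domain took several courses. Snrpn, a paternally expressed gene of RNA splicing, was at 3.84 ± 0.565, 0.328 ± 0.535 and 0.384 ± 0.377 CPM. Its days 1 and 7 did not overlap, and its first-week log2 fold change of -3.51 ± 1.31 was larger in size than that of Ndn but missed the threshold (adjusted p = 0.064, then 0.906 for the second week). Peg12, too low to be tested, was at 0.165, 0.0109 and 0 CPM, again without overlap of days 1 and 7. Snurf was at 2.18 ± 0.302, 2.89 ± 0.312 and 1.65 ± 0.418 CPM and fell only in the second week (-0.80 ± 0.21, adjusted p = 0.127 and 0.00523). Mkrn3, paternally expressed and 67.7 kb from Ndn, had means of 1.17, 0.963 and 0.775 CPM, with no step past the threshold (adjusted p = 0.475 and 0.381). Atp10a, a lipid flippase gene listed as maternally expressed, rose from 34.7 ± 2.25 to 50.4 ± 1.15 and 65.1 ± 1.7 CPM. Ube3a, a ubiquitin ligase gene with the same listing, rose slightly in the first week, from 68.3 ± 3.69 to 76.4 ± 4.95 CPM. It was at 77.2 ± 3.21 CPM at day 14 (adjusted p = 0.0384 and 0.815). Whether either gene is imprinted in these cells was not measured. Snrpn and Snurf share a transcript, so their reads may have been split. Magel2 had 0 counts throughout.

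Mest, a paternally expressed gene for a hydrolase-like protein (gene 17294; chromosome 6, 30733506 to 30748466), was scarce on every day. It was at 0.843, 1.11 and 0.423 CPM at day 1, 0.521, 0.179 and 0.0774 CPM at day 7 and 0.22, 0.245 and 0.338 CPM at day 14. Days 1 and 7 overlapped, and so did days 7 and 14. The first-week fall of 1.58 ± 0.59 passed the test narrowly (adjusted p = 0.0432). It held in only 8 of 18 alternatives, with a range from 0.00544 to 0.217. Leaving out library 4 (0.0953) or 5 (0.158) of day 1, 2 (0.127) or 3 (0.127) of day 7, or 4 (0.0528), 5 (0.0556) or 6 (0.0534) of day 14 each ended it. Day 14 was below day 1 by 1.56 ± 0.60 (adjusted p = 0.0329, from 0.00924 to 0.127 over the alternatives). Here leaving out library 4 (0.0713) or 5 (0.127) of day 1, or library 4 (0.0892) or 5 (0.0826) of day 14, ended the call. Copg2, a coat protein gene listed as maternally expressed, overlaps Mest and was at 129 ± 1.39, 136 ± 4.8 and 119 ± 5.12 CPM. Reads at the overlap therefore weigh more on the scarcer Mest.

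Peg10 derives from a retrotransposon and is expressed from the paternal chromosome (gene 170676; chromosome 6, 4747306 to 4760517). It was at 5.13, 5.23 and 6.26 CPM at day 1, 4.69, 1.29 and 1.93 CPM at day 7 and 4.71, 5.37 and 5.37 CPM at day 14. All day 7 libraries were below those of the other days, library 1 only just so, and days 1 and 14 overlapped. Neither the first step of -1.06 ± 0.40 (adjusted p = 0.0591) nor the second of 0.96 ± 0.41 (adjusted p = 0.0662) was called. Leaving out library 1 of day 7 gave calls for both, at -1.79 (adjusted p = 2.15e-05) and 1.67 (1.85e-05), where other alternatives reached 0.359 for the first and 0.322 for the second. DESeq2 called both with all libraries (0.00421 and 0.00662).

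Sgce, a sarcoglycan gene that is paternally expressed and lies 0.1 kb from Peg10, did not return at day 14. It fell from 8.73 ± 0.422 to 1.94 ± 0.291 and 0.0754 ± 0.131 CPM, a log2 fold change of -2.17 ± 0.41 in the first week (adjusted p = 0.00218) and of -4.6 ± 0.64 in the second (adjusted p = 0.000219). Ppp1r9a, a neurabin gene of the domain listed as maternally expressed, fell as well. It went from 2.05 ± 0.255 to 0.291 ± 0.0345 and 0.0901 ± 0.0796 CPM (adjusted p = 0.000333 and 0.0267). Day 14 libraries of Peg10 overlapped those of day 1, whereas those of Sgce and Ppp1r9a were at most 0.226 and 0.151 CPM.

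**Figure D4:**
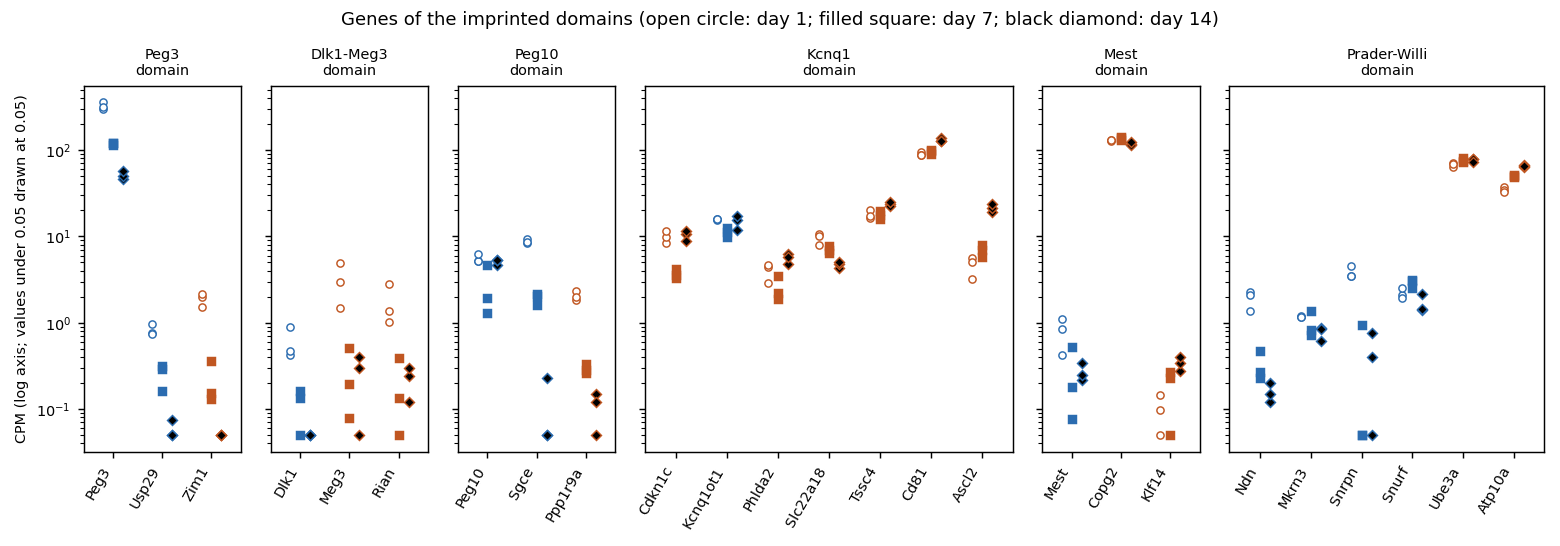
CPM (vertical axis, log scale, with values under 0.05 drawn at 0.05) of the tested imprinted genes of 6 domains in each library, with open circles for day 1, filled squares for day 7, black diamonds for day 14, blue for paternally and orange for maternally expressed genes. In the Peg3 domain all 3 genes step down from day to day, while in the Kcnq1 domain genes move both ways and Peg10 stays near 5 CPM at day 14 where Sgce is below 0.3.

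Set side by side, members of both parental classes fell in the first week. All 4 maternally expressed members fell, and of the 6 paternally expressed ones 4 fell and 1 rose. Over all genes 24.0% fell and 25.5% rose. Zim1 (maternal) and Dlk1 (paternal) passed the filter only through day 1, which favours a fall in these counts and medians. The median log2 fold change was -2.81 for the maternal class, ranging from -3.57 to -1.43, and -1.52 for the paternal class, ranging from -2.58 to 0.34. The median over all genes was -0.000529. In the second week, in which 35.1% of all genes fell and 32.5% rose, 4 paternally expressed members fell and 0 rose (median -0.70, or -0.56 with the days at 0 counts set at their bound), while 1 maternally expressed member fell and 1 rose (median -0.17). Between days 1 and 14, 4 of 6 and 3 of 4 fell, with medians of -2.12 and -3.21, where 38.4% of all genes fell. The ranges of the classes overlapped in each pair of days, and the difference between the classes was not tested.

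Summed over members, the paternal class went from 400.5 to 445.2 CPM at day 1 to between 222 and 241 at day 7 and between 139.7 and 151 at day 14. Peg3 and Plagl1 made up most of that sum. The maternal class had between 30.6 and 34.6 CPM at day 1, between 7 and 7.47 at day 7 and between 11.5 and 14.4 at day 14, and its return rested on Cdkn1c. Within the Peg3 domain the ratio of Peg3 to Zim1 counts was 177, 198 and 146 in the day 1 libraries and 329, 934 and 734 in the day 7 libraries. Every day 7 ratio was above every day 1 ratio, so Zim1 was lower relative to Peg3 at day 7.

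**Figure D5:**
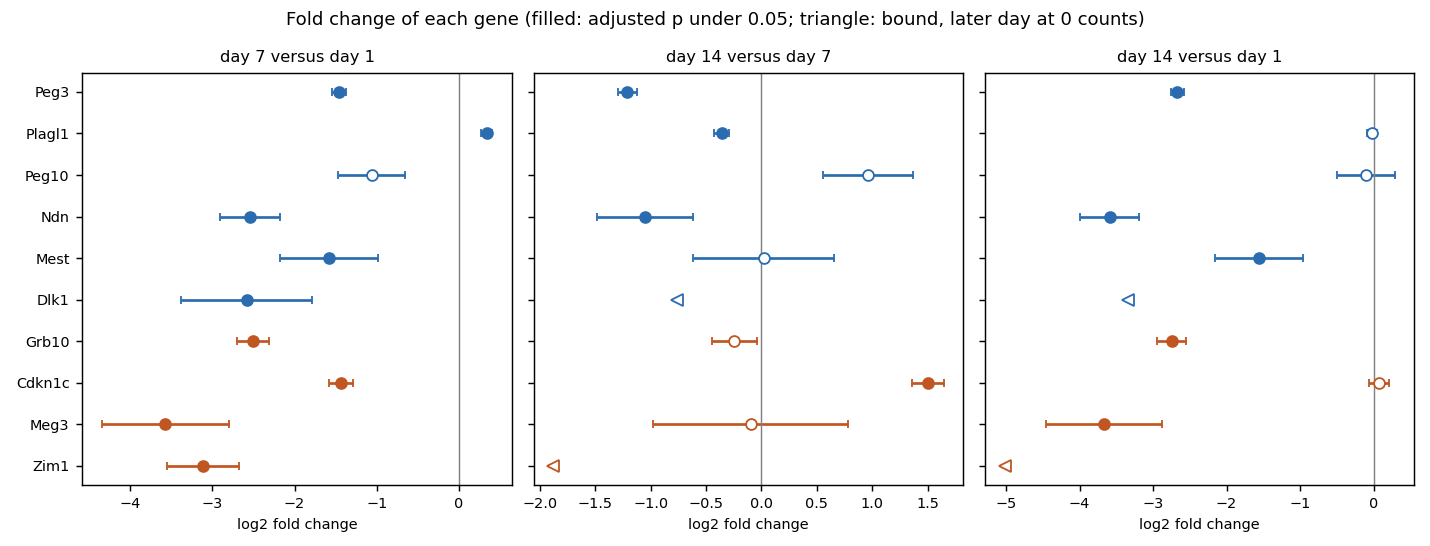
Log2 fold change (horizontal axes) of each gene in the 3 pairs of days, with error bars of 1 SE, filled points where the adjusted p was under 0.05, blue for paternally and orange for maternally expressed genes. Triangles are bounds on the fall where all day 14 libraries had 0 counts, for Dlk1 and Zim1. Only Plagl1 lies to the right of 0 in the first week, and only Cdkn1c is filled to the right of 0 in the second.

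Per kilobase of exon, Peg3 led at day 1 with 37.5 ± 3.22 CPM per kb, followed by Plagl1 (16.5 ± 1.75), Cdkn1c (5.12 ± 0.771), Grb10 (3.36 ± 0.343) and Peg10 (0.831 ± 0.0942). With the exon lengths used, the libraries of these 5 genes did not overlap with those of the next in order. For Ndn that length, 3694 bases, exceeds its RefSeq gene body, so its place below Peg10 is uncertain. Ndn, Mest, Zim1, Meg3 and Dlk1 followed between 0.516 and 0.124 CPM per kb, and each overlapped with its neighbour in that order. By day 14 the order began with Plagl1 (16.3 ± 0.159), then Peg3 (5.88 ± 0.688) and Cdkn1c (5.37 ± 0.731), of which the last pair overlapped.

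Imprinted genes outside the 10 included falls and rises. Of 49 listed, 36 were tested, and 17 fell and 6 rose from day 1 to day 7 (median -0.33), where 24.0% of all genes fell and 25.5% rose. In the second week 12 fell and 12 rose, shares near those of all genes (35.1% and 32.5%). Between days 1 and 14, 16 fell and 9 rose, against 38.4% and 35.5% of all genes. The largest falls of the first week were those of Nnat, a paternally expressed proteolipid gene (0.345 to 0.0105 CPM), Dcn, which encodes the matrix protein decorin (107 ± 26.9 to 11.5 ± 3.24 CPM), and Rian. The largest rises were those of Rasgrf1 (0.952 to 1.59 CPM), Ascl2 and Atp10a. In the second week Igf2, Sgce and the maternally expressed RNA H19 fell most (log2 fold changes of -5.61, -4.6 and -3.54), and the same 3 genes had the largest falls between days 1 and 14. Zdbf2, a paternally expressed zinc finger gene, rose most, from 0.164 ± 0.0876 to 1.29 ± 0.167 CPM after a fall from 0.835 ± 0.336 in the first week. Ascl2 and Zrsr1 (10.7 ± 0.497 to 28.1 ± 0.556 CPM) came next. Klf14, Rasgrf1 and Ascl2 had the largest rises between days 1 and 14 (1.81, 2.13 and 2.21 on the log2 scale).

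Split by listed parental class, 9 of the 18 tested paternal genes fell and 2 rose in the first week (median -0.83). Of 17 maternal ones 8 fell and 4 rose (median 0.00434). Over all genes 24.0% fell and 25.5% rose, and the difference between the classes was not tested. Slc38a4, a paternally expressed amino acid transporter gene, was at 359 ± 21.6 and 414 ± 18.1 CPM at days 1 and 7 and fell to 50.5 ± 6.1 CPM at day 14. Igf2 itself went from 613 ± 198 to 78.5 ± 34.5 and 1.61 ± 0.0927 CPM. The list therefore holds genes that fell early, late or in both weeks, and genes that rose.

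Genes beside the members were called about as often as all genes in the first week. Within 500 kb of a member lay 44 tested genes in none of the imprinted lists, of which 12 rose and 9 fell from day 1 to day 7, 15 rose and 20 fell from day 7 to day 14, and 15 rose and 20 fell between days 1 and 14. Over all genes the shares were 25.5% higher and 24.0% lower, 32.5% and 35.1%, and 35.5% and 38.4% in these pairs of days, and nothing particular to the neighbours is read from these counts. Their median log2 fold changes were 0.00607, -0.184 and -0.316. Around Peg3, where 9 such genes were tested, the zinc finger genes Zfp954 and Zfp667 rose in the first week and Zfp28 fell. Some neighbours, such as Osbpl5 and Hymai, are known to be imprinted in particular tissues.

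Genes with a course most like that of Peg3 were Tmem132a (r = 0.998; 426 ± 20.8, 126 ± 7.76 and 47.6 ± 5.3 CPM), the melanocyte channel gene Trpm1 (0.998), Mlec (0.998), Fam213a (0.997) and the perlecan gene Hspg2 (0.997; 802 ± 50.6, 286 ± 29 and 107 ± 13.3 CPM). All lie on chromosomes other than 7 except Trpm1. A steady fall over 2 steps was common, since 10.2% of all genes fell in both.

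Markers of the sorted cells and of other skin cells were measured beside these genes. Krt5 was between 21070 and 22890 CPM at day 1, between 21990 and 23120 at day 7 and between 14750 and 16510 at day 14, and Krt14 between 12570 and 13130, 10040 and 10800, and 6638 and 7465 CPM. The pan-leukocyte gene Ptprc was at most 0.18 CPM. All 5 melanocyte markers fell in both steps, with sums of 345.4 to 375.7 CPM at day 1, 98.8 to 119.6 at day 7 and 4 to 8.07 at day 14, and Dct led them. Skeletal muscle markers summed to at most 0.895 CPM, with Myh8 and Myod1 at 0 counts throughout, and endothelial markers to at most 1.76 CPM. Of 4 Schwann cell markers 2 fell and 1 (Mbp) rose from day 1 to day 7, against 24.0% and 25.5% of all genes. Pdgfra, a fibroblast receptor gene, was between 0.537 and 2.71 CPM at day 1 and between 0.271 and 0.929 at day 7. Erythroid markers were highest at day 7, with sums of 11.7 to 41.5 CPM against at most 1.61 at day 1 and 5.43 at day 14, and leukocyte markers summed to at most 4.62 CPM. The part of melanocytes and Schwann cells in the falls of the imprinted genes was not tested.

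Libraries held between 50670191 and 62970768 counts. Of 14507 genes tested, 49.4% changed from day 1 to day 7, 67.6% from day 7 to day 14 and 73.9% between days 1 and 14, so a call alone is common in these data. With library totals alone as scaling, the share of changed genes that were higher went from 51.5% to 35.7%, from 48.1% to 34.9% and from 48.1% to 31.9% in these pairs. Under that scaling 9, 5 and 8 members fell and 1, 1 and 0 rose, against 8, 5 and 7 falls and the same rises with TMM factors.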

How the data were processed

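RNA of CD45.2-negative, viable skin cells was measured in 9 libraries, 3 per day. Per the labels' protocols, these were stranded mRNA libraries sequenced on a NovaSeq instrument. Per the submitters' processing notes, the authors' tools include HISAT2 2.1.0, StringTie 1.3.4d, Trimmomatic and bcl2fastq 2.20.0, and the build is mm10. How reads were counted, with which strand setting and on which annotation, is not given in the sources used here. The deposited values are raw read counts per gene, per the file headers. A further 18 columns of FPKM and TPM were not used.

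Columns headed D0 were assigned to day 1, since no label names a day 0 and the later days have headers of their own. The header numbers of days 1 and 14 match no title number, so columns were assigned to days only.

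Counts were filtered with filterByExpr (14507 of 24532 genes kept), scaled with TMM and fitted in a single model of all 9 libraries with edgeR 4.0.16 (robust quasi-likelihood, under R 4.3.3). Adjusted p-values follow Benjamini and Hochberg over every gene tested. The steps were tested on simulated data. Alternatives used limma 3.58.1 and DESeq2 1.42.0, other scalings and filters, and fewer libraries. Coordinates and neighbours come from RefSeq GRCm38.p6, matched by gene identifier for 24462 genes, and exon lengths from GENCODE M21. Promoter windows are from RefSeq and were given for 8 of the 10 members.

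The members, lists and tests were chosen with earlier results of these data known. Named are all members, tested genes of their domains, the 3 largest called rises and falls of the other imprinted genes per pair of days, the 5 genes of most similar course for 1 member of each class, and set markers. Begain, Cobl, Hymai, Osbpl5, Zfp28, Zfp954, Zfp667 and further genes outside that rule were named after their values were seen. A limit of 3 counts per library was used where a day had 0 counts.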

Additional observations from a re-analysis of the deposited data

How the results depend on the processing

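No called change of a member reversed its direction among the alternatives run. Differences that were not called did change sign for Meg3 and Mest in the second week (from -0.65 to 0.86 and from -0.40 to 1.01 on the log2 scale) and for Plagl1 and Cdkn1c between days 1 and 14 (from -0.29 to 0.04 and from -0.20 to 0.17). With a fold minimum of 1.5, 1788, 3193 and 5054 genes passed in the first week, the second week and between days 1 and 14, against 7171, 9808 and 10716. Under it 0 members rose in the first week (0 paternal) and 2 paternal ones fell, while in the second week 2 members fell, 1 of them paternal. Among other imprinted genes 0 rose and 8 fell in the first week, 6 rose and 7 fell in the second, and 5 rose between days 1 and 14. In the second week DESeq2 called 2 members higher (1 paternal), and limma-voom 2 higher (1 paternal) and 3 lower (2 paternal). A model of only those days called 2 members lower, 2 paternal and 0 maternal. Zim1 and Dlk1 did not pass its filter, and Ndn had an adjusted p of 0.0953. Library totals alone left 2 other imprinted genes higher in the first week. Without day 1 library 4 and day 7 library 2, an alternative chosen after seeing the data, 2 paternal members fell in the first week; the cause was not tested.

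Leaving out 1 library at a time gave 2 to 5 paternal members lower in the first week, with 2 to 6 other imprinted genes higher. In the second week it gave 1 to 2 members higher and 3 to 5 lower, 0 to 1 paternal members higher and 2 to 4 lower, and 1 to 2 maternal members lower. No paired analysis was possible because the headers of days 1 and 14 carry the numbers 4 to 6, which no label has, so only day 7 has the labels' numbers. Depth limits Dlk1, Zim1, Mest, Meg3 and Ndn most, each below 0.55 CPM in every library of the later days. The fold minimum has no form for the test over all 3 days and was not run there.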

Other observations

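Factors that keep imprints in place were mostly lower after day 1. Of 7 tested genes of imprint maintenance, 5 fell and 0 rose from day 1 to day 7, and 2 rose and 5 fell in the second week. All 7 were below day 1 at day 14. Over all genes 24.0% fell and 25.5% rose in the first week, and 35.1% and 32.5% in the second. Between days 1 and 14 the shares were 38.4% and 35.5%. The median log2 fold changes of the 7 in these pairs were -0.25, -0.25 and -0.44. Trim28, the corepressor of the imprint-protecting zinc finger proteins, went from 412 ± 10.5 to 309 ± 15.9 and 341 ± 15.3 CPM (SD, n = 3; adjusted p = 2.73e-05 and 0.0279). Zfp57, which binds TGCCGC, fell from 2.64 ± 0.395 to 0.0927 ± 0.0604 CPM and was at 0.228 ± 0.0105 CPM at day 14 (adjusted p = 1.07e-06 and 0.0264). The methyltransferase gene Dnmt1 was at 266 to 279 CPM at day 1 and 155 to 185 CPM at day 14. Dppa3 had 0 counts in all libraries.

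Genes around insulin receptor signalling, in which Grb10 acts, moved in both directions. Of 11 tested, 1 rose and 6 fell in the first week, and 5 rose and 6 fell in the second. Over all genes 25.5% rose and 24.0% fell, and then 32.5% and 35.1%. The list also holds the ligand gene Igf1 and the RNA-binding genes Igf2bp1, Igf2bp2 and Igf2bp3, each of which fell in both weeks. The adaptor gene Grb2 was at 78.3 to 84.7 CPM at day 1 and 107.8 to 117.8 CPM at day 14. Irs1, a receptor substrate, fell from 118 ± 10 to 45.6 ± 2.47 and 37.4 ± 3.41 CPM, while the Grb10 relative Grb7 was higher on each later day, between 19.7 and 20.8 CPM at day 1, 29.3 and 34.9 at day 7 and 88.4 and 94.6 at day 14. Igf2bp1, which binds Igf2 RNA, fell from 34 ± 4.86 to 6.3 ± 0.445 and 0.255 ± 0.145 CPM.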
